A study of Mus musculus with 6 samples.

Results

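The 9 genes described here encode the enzymes that commit glucose to glycolysis and the enzymes that set the pace of that commitment. They are the hexokinase genes *Hk1* and *Hk2*, the phosphofructokinase genes *Pfkl*, *Pfkm* and *Pfkp*, and the genes of the bifunctional PFKFB enzymes, *Pfkfb1*, *Pfkfb2*, *Pfkfb3* and *Pfkfb4*. They were chosen by name, with no measured value in the rule but with earlier results of these data known. The table of raw counts held 54532 genes, and all 9 members passed the filter on low counts. RNA-seq was performed on 6 single mouse hearts at E9.5, the stage of the early looped heart tube. The WT group held 3 hearts from wild-type embryos, and the *Smyd1-KO* group held 3 hearts from embryos homozygous for a constitutive null allele of *Smyd1*, which encodes a lysine methyltransferase of heart and skeletal muscle. The null allele comes from a mouse line kept as heterozygotes and is present in every cell of the embryo, not in 1 cell type, and no heart received a treatment. Each library was made from the heart of a separate embryo, and embryos of both sexes were used. The labels do not say whether a replicate number links a WT heart to a *Smyd1-KO* heart.

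Hexokinase traps glucose in the cell as glucose 6-phosphate. Hexokinase 1 is the broadly expressed form, and hexokinase 2 is the form typical of insulin-responsive muscle and of the hypoxic response. Phosphofructokinase 1, built from liver-type (PFKL), muscle-type (PFKM) and platelet-type (PFKP) subunits, turns fructose 6-phosphate into fructose 1,6-bisphosphate. The PFKFB enzymes make and remove fructose 2,6-bisphosphate, the strongest known activator of phosphofructokinase 1. PFKFB3 has the highest kinase activity relative to its phosphatase activity, and PFKFB2 is the form typical of the adult heart. The midgestation heart relies heavily on glycolysis before it turns to fatty acid oxidation.

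*Hk2*, *Pfkl*, *Pfkp* and *Pfkfb3* were the members called higher in *Smyd1-KO* hearts, and their promoter windows are shown for that reason. Each window runs from 250 bases before to 50 bases after a RefSeq transcription start on GRCm38, so it covers the proximal promoter and the first bases of exon 1. All 5 lie on the minus strand and are written 5′ to 3′ along the gene. *Pfkfb3* is shown at 2 starts, the outer one near the edge of the gene and the inner one within it. Capitals mark ACGTG or GCGTG on either strand, the core letters recognised by hypoxia-inducible factors. Which start each heart used was not measured.
Hk2 (chr6:82774405-82774704): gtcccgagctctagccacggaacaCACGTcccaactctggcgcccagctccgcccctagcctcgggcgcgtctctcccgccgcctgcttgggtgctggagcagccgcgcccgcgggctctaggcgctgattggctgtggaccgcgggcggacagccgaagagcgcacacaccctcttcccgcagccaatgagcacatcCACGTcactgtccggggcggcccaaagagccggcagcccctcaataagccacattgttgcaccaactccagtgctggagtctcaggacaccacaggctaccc
Pfkl (chr10:78009758-78010057): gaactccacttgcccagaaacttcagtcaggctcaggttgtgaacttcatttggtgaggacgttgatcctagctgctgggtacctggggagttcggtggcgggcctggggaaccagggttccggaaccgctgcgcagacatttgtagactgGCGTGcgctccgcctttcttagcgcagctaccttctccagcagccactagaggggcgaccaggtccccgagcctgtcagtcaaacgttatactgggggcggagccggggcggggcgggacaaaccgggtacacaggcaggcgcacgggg
Pfkp (chr13:6648722-6649021): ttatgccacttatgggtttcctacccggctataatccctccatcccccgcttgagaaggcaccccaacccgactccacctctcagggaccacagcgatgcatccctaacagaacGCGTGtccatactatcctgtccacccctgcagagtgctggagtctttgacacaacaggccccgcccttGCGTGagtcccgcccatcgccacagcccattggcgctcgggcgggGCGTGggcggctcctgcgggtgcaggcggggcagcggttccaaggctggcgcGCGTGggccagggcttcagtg
Pfkfb3, inner start (chr2:11502041-11502340): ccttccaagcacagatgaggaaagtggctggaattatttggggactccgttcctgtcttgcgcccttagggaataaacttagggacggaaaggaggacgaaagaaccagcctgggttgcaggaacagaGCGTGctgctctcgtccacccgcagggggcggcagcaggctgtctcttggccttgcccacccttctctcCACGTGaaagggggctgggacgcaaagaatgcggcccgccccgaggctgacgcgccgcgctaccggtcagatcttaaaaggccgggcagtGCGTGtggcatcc
Pfkfb3, outer start (chr2:11553880-11554179): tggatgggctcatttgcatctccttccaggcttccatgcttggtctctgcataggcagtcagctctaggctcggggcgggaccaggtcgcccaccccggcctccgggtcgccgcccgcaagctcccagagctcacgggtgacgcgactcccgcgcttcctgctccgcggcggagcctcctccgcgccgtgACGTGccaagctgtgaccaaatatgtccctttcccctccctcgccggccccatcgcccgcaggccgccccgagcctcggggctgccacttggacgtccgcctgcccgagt
The *Hk2* window held 2 matches to ACGTG, beginning 226 and 52 bases before the start, and the *Pfkp* window held 4 matches to GCGTG. *Pfkl* had 1 match to GCGTG, 99 bases before the start. At the inner *Pfkfb3* start, ACGTG matched on both strands within a single CACGTG, 53 bases before the start, and GCGTG matched 2 times. The outer *Pfkfb3* window held ACGTG 1 time. Of all 32851 mouse windows of the same length, 19.6% held ACGTG, 32.4% held GCGTG and 43.8% held either. Among the 19 windows of the 9 members, 14 held either motif, but some windows of *Pfkm* and of *Pfkfb2* overlap each other. The 14 included windows of members that were not called, such as *Hk1*, which had 5 matches at 1 start and 0 at the other. *Pfkfb2*, also not called, had 4 at 1 of its 3 starts, counting both strands of a single CACGTG. A match is a run of letters and was not tested for binding.

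Counts on genes ran from 48627825 to 64217529 per heart, and the smallest count of any member, 293 for *Pfkfb2* in *Smyd1-KO* heart 1, carried a counting error of 5.84%. Levels are in CPM, that is, counts after each library was brought to the same effective size. *Smyd1* itself was measured at 414, 379 and 270 CPM in WT hearts 1 to 3 and at 101, 222 and 206 CPM in *Smyd1-KO* hearts 1 to 3. Every *Smyd1-KO* heart lay below every WT heart, at a log2 fold change of −1.01±0.30 (s.e.), which was not called (edgeR's quasi-likelihood test, adjusted *P*=0.0973), while DESeq2 called *Smyd1* lower (adjusted *P*=0.00538). All 15 cardiomyocyte markers were tested, and 0 were called. Their summed level ran from 13400 to 22640 CPM in WT and from 10180 to 21290 CPM in *Smyd1-KO* hearts, lowest in WT heart 3 and *Smyd1-KO* heart 1. Erythroid markers summed to 764.5 to 1020 CPM in WT and 29.2 to 292 CPM in *Smyd1-KO* hearts, with 4 of 15 called lower. Of 6 neural markers 5 were tested, and of 5 somite markers 2 were tested. *Smyd1-KO* heart 1 held the most RNA of these tested neural markers, at 125.9 CPM against 13.9 to 42.1 CPM in the other hearts. It also held the most of the tested somite markers, at 25.2 CPM against at most 1.35 CPM. Of the 10 endothelial markers 1 was called higher, and 0 of the 7 epicardial markers were called. The epicardial markers summed to 125 to 155 CPM in WT and 159 to 282 CPM in *Smyd1-KO* hearts, without overlap. The tested gut and liver endoderm markers, 4 of 5, summed to 2.15 to 34.8 CPM in WT and 4.21 to 70.5 CPM in *Smyd1-KO* hearts. That sum was highest in *Smyd1-KO* heart 3. In whole hearts, a smaller number of cells of a type and less RNA per cell cannot be told apart.

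The question of the comparison was which isoforms of the entry steps of glycolysis differ in a heart that lacks SMYD1. Of the 9 members, 4 were called higher and 0 lower in *Smyd1-KO* hearts. Of all 19372 tested genes, 2.86% were called higher, 1.42% lower and 4.28% in either direction, where a call needed an adjusted *P* below 0.05 and a log2 fold change of at least 0.5 in size. The 2 hexokinase genes, the 3 phosphofructokinase genes and the 4 PFKFB genes each held at least 1 called member and at least 1 that was not called. The median log2 fold change was 0.47 over the members and −0.00 over all tested genes. *Smyd1-KO* hearts lay wholly above WT hearts for 5 members and wholly below for 1, against 15.9% and 15.5% of all tested genes, or 31.3% in either direction. The unadjusted *P* was below 0.05 for 6 of the 9 members and for 25.1% of all tested genes. With other models, DESeq2 called 5 members, and 9.21% of the 18962 genes to which it gave an adjusted *P*. Of all 19372 tested genes, edgeR's glmTreat against a log2 fold change of 0.5 called 0.795%, with *Hk2* and *Pfkfb3* among them. A block for the replicate number left the same pair (0.305%). With the summed cardiomyocyte markers as a covariate, a model chosen after seeing the data, the 4 members were called again (8.41%).

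**Figure D1:**
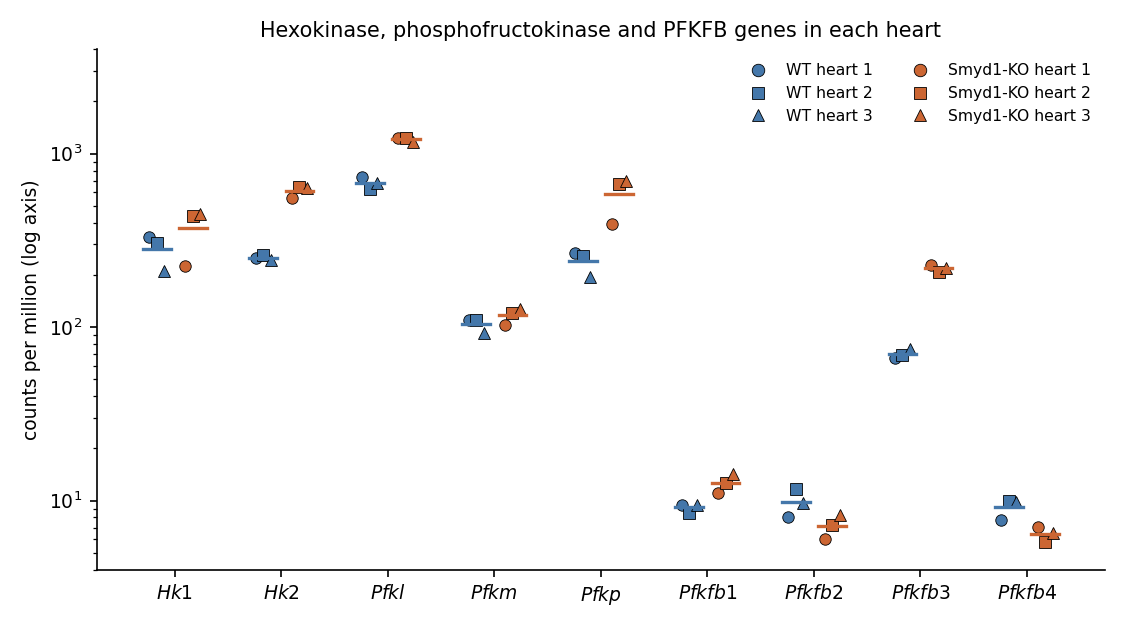
Level of each of the 9 genes in each heart, in CPM on a log axis. Points are single hearts (blue, WT; orange, *Smyd1-KO*; 3 per genotype), and bars are group means. The genotypes lie apart in *Hk2*, *Pfkl*, *Pfkp* and *Pfkfb3*, with *Pfkfb3* rising from a mean of 69.9 to 218.5 CPM. They also lie apart in *Pfkfb1* and *Pfkfb4*, which were not called, and overlap in *Hk1*, *Pfkm* and *Pfkfb2*.

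*Hk2* (ENSMUSG00000000628, chr6:82725025-82774454, minus strand) was measured at 250.4, 260.8 and 244.8 CPM in the WT hearts and at 553, 643 and 630.3 CPM in the *Smyd1-KO* hearts. The lowest *Smyd1-KO* heart stood above 2 times the highest WT heart, and WT hearts varied little, with a coefficient of variation of 3.22%. The difference was 2.42-fold, a log2 fold change of 1.27±0.09 (s.e.; n=3 per genotype; edgeR's quasi-likelihood test, adjusted *P*=0.00122), and *Hk2* was called in all 6 fits that left out 1 heart. *Hk1* (ENSMUSG00000037012, chr10:62268855-62379908, minus strand) behaved differently from heart to heart. Its values were 331, 306 and 212 CPM in WT and 226, 437 and 451 CPM in *Smyd1-KO* hearts, so *Smyd1-KO* heart 1 fell inside the WT range and the other *Smyd1-KO* hearts above it. The log2 fold change of *Hk1* was 0.39±0.28 with a 95% interval of −0.27 to 1.05 and was not called (adjusted *P*=0.428), an interval that holds both no difference and a doubling. Without *Smyd1-KO* heart 1 the value for *Hk1* was 0.65 (adjusted *P*=0.0754), and without WT heart 3 it was 0.23. The hearts with the lowest *Hk1* in each genotype were those with the lowest cardiomyocyte marker sums.

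Among the phosphofructokinase subunits, *Pfkl* and *Pfkp* rose and *Pfkm* did not pass the test. *Pfkl* (ENSMUSG00000020277, chr10:77986947-78010083, minus strand) was the most abundant of the 9 genes, at 730.5, 627 and 674 CPM in WT and 1226, 1232 and 1174 CPM in *Smyd1-KO* hearts. The genotypes did not overlap, and each group spanned less than the gap between them. *Pfkl* was 1.79-fold higher, a log2 fold change of 0.84±0.09 (adjusted *P*=0.00664). Its call was lost without WT heart 2 (adjusted *P*=0.0544) and without WT heart 3 (adjusted *P*=0.0512), while the log2 fold change stayed between 0.79 and 0.90 over the 6 such fits.

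*Pfkp* (ENSMUSG00000021196, chr13:6579768-6648777, minus strand) was measured at 268, 259 and 194 CPM in WT and at 395, 666 and 697 CPM in *Smyd1-KO* hearts. All *Smyd1-KO* hearts lay above all WT hearts, but heart 1 lay far below the other *Smyd1-KO* hearts, and the coefficient of variation among *Smyd1-KO* hearts was 28.4%. The log2 fold change was 1.29±0.23, or 2.44-fold (adjusted *P*=0.0279). Its size was close to that of *Hk2* with a standard error more than 2 times as large. Without *Smyd1-KO* heart 1, the heart with the low cardiomyocyte and high neural and somite marker sums, it was 1.51 (adjusted *P*=0.00369). In the 5 fits without another heart it was 1.15 to 1.38 and was not called (adjusted *P*=0.0668 to 0.121). *Pfkp* shares 748 exonic bases with *Pitrm1* on the opposite strand, whose log2 fold change was −0.08.

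*Pfkm* (ENSMUSG00000033065, chr15:98092589-98132451, plus strand), the subunit that predominates in adult striated muscle, was measured at 110.2, 110.6 and 92.0 CPM in WT and 103, 121 and 127.5 CPM in *Smyd1-KO* hearts. The genotypes overlapped. The log2 fold change of *Pfkm* was 0.17±0.11 (adjusted *P*=0.399), and its 95% interval of −0.10 to 0.43 lay below the fold required for a call.

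**Figure D2:**
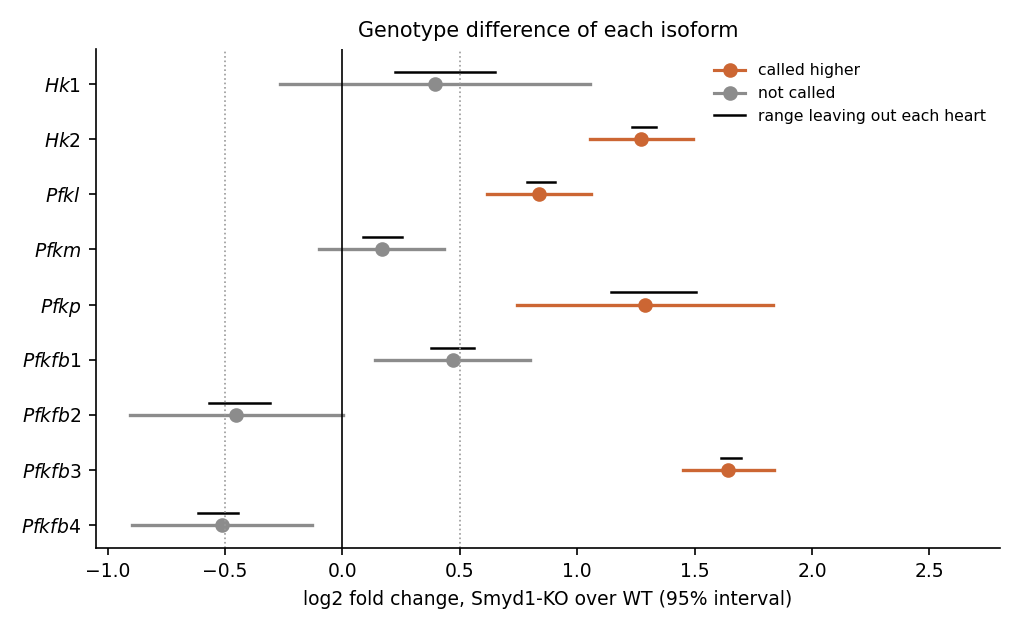
Log2 fold change of each gene, *Smyd1-KO* over WT, with its 95% interval (coloured line) and the range of the estimate over the 6 fits that each left out 1 heart (black line above). Orange marks genes called higher and grey marks genes not called, and dotted lines stand at ±0.5. *Pfkfb3* has the highest estimate, 1.64, and *Hk1* the widest interval, −0.27 to 1.05.

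In the PFKFB family, *Pfkfb3* rose and the 3 other genes were not called. *Pfkfb3* (ENSMUSG00000026773, chr2:11471433-11554077, minus strand) was measured at 66.3, 68.8 and 74.5 CPM in WT and at 228, 208 and 219 CPM in *Smyd1-KO* hearts. Each group was tight, with coefficients of variation of 6.02% and 4.62%, and the lowest *Smyd1-KO* heart was above 2 times the highest WT heart. The difference was 3.13-fold, a log2 fold change of 1.64±0.08 (edgeR, adjusted *P*=0.000393), and *Pfkfb3* ranked 6 by *P* among all 19372 tested genes. It was called in all 6 fits without 1 heart, at 1.61 to 1.70.

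The other PFKFB genes were less abundant, and 2 of the 3 had negative estimates. *Pfkfb1* (ENSMUSG00000025271, chrX:150588229-150643878, plus strand), best known from liver and skeletal muscle, was measured at 9.38, 8.54 and 9.48 CPM in WT and 11.1, 12.7 and 14.2 CPM in *Smyd1-KO* hearts. The *Smyd1-KO* hearts of *Pfkfb1* lay above the WT hearts, at 0.47±0.14 (adjusted *P*=0.0982). The gene shares 123 exonic bases with *Apex2* on the opposite strand, which was called lower at −0.54 (adjusted *P*=0.0321), and without a stated strand setting reads in those bases cannot be assigned to either gene.

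*Pfkfb2* (ENSMUSG00000026409, chr1:130689182-130729253, minus strand) was measured at 8.02, 11.7 and 9.75 CPM in WT and 6.03, 7.24 and 8.23 CPM in *Smyd1-KO* hearts, with overlap. Its log2 fold change was −0.45±0.19 (edgeR, adjusted *P*=0.2004). *Pfkfb2* shares 1262 exonic bases with *Gm29427* on the same strand, which held 8 counts over all hearts. It also shares 154 with *Yod1* on the opposite strand, whose log2 fold change was −0.15. How reads in those bases were counted is not stated, so the level of *Pfkfb2* is uncertain to that extent. *Pfkfb4* (ENSMUSG00000025648, chr9:108991778-109032228, plus strand), a form best known from testis and from hypoxic cells, was measured at 7.72, 9.96 and 9.88 CPM in WT and 7.01, 5.80 and 6.48 CPM in *Smyd1-KO* hearts. Here every *Smyd1-KO* heart lay below every WT heart. The log2 fold change of *Pfkfb4* was −0.51±0.16 and was not called by edgeR (adjusted *P*=0.111), while DESeq2 called it lower (adjusted *P*=0.0322). DESeq2 called 3.27% of the 18962 genes to which it gave an adjusted *P* lower.

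Levels of different genes were compared as TPM, which divide each count by the summed exonic length of the gene and scale the heart to a common total. In WT hearts *Pfkl* led at 356±21.8 TPM (s.d., n=3), followed by *Hk2* at 148.5±8.03 TPM, *Hk1* at 116±20.7 TPM, *Pfkm* at 109.5±7.56 TPM and *Pfkp* at 62.7±7.96 TPM. *Pfkfb3* came next at 32.6±3.69 TPM, above *Pfkfb1* at 8.00±0.64 TPM, *Pfkfb4* at 6.66±1.22 TPM and *Pfkfb2* at 4.77±1.02 TPM. Of these neighbours, *Hk1* and *Pfkm* overlapped between hearts, as did *Pfkfb4* and *Pfkfb2*, and the others did not. With the coding length *Hk1* stood above *Hk2*, *Pfkp* above *Pfkm* and *Pfkfb4* above *Pfkfb1* in WT hearts, so these orders rest on the length used. In *Smyd1-KO* hearts *Pfkl* at 617±21.2 TPM and *Hk2* at 346±22.2 TPM again led. *Pfkp* at 148±40.2 TPM, *Hk1* at 147.5±48.4 TPM and *Pfkm* at 119±11.3 TPM followed, each overlapping the next. With this length, *Pfkfb3* at 98.3±6.05 TPM stood just below them without overlap. With the longest transcript or the coding length *Pfkfb3* stood above *Pfkm* in every *Smyd1-KO* heart. With the coding length *Pfkp* stood above *Hk2* in *Smyd1-KO* hearts 2 and 3. The order of genes of different families thus also rests on the length used. *Pfkfb1*, *Pfkfb4* and *Pfkfb2* stayed at the bottom, at 10.7±1.21, 4.49±0.49 and 3.35±0.48 TPM.

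Summed by family, RNA for all 3 steps was higher in every *Smyd1-KO* heart than in any WT heart. Each sum includes called members, and the sums were taken with the summed exonic length only. For single genes in CPM, *Smyd1-KO* hearts lay wholly above WT hearts in 15.9% of all tested genes. No such share was computed for sums. Hexokinase RNA summed to 268, 281 and 244 TPM in WT and 412.5, 534 and 535 TPM in *Smyd1-KO* hearts, a ratio of means of 1.87. Phosphofructokinase RNA went from 528.5±11.2 to 884±34.4 TPM (s.d.), a ratio of 1.67. PFKFB RNA went from 52.0±5.95 to 117±5.88 TPM, a ratio of 2.25, which was the highest of the 3 families.

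The isoform make-up of each family also differed. *Hk2* made up 56.4±5.31% (s.d.) of hexokinase RNA in WT and 70.7±6.13% in *Smyd1-KO* hearts, from 66.6 to 77.8% in the latter and without overlap. Which hexokinase leads in WT depended on the length used, since *Hk2* held 41.4% in WT with the longest transcript and 48.3% with the coding length, and 56.9% and 63.6% in *Smyd1-KO* hearts. *Pfkl* held 67.4±3.22% of phosphofructokinase RNA in WT and 69.9±4.80% in *Smyd1-KO* hearts (s.d.), with overlap. *Pfkm* went from 20.7±1.73% to 13.5±0.86%, without overlap, and *Pfkp* from 11.9±1.58% to 16.7±4.02%, with overlap. These shares also depended on the length, since *Pfkp* has by far the longest summed exons of the 3 genes. By mean TPM with the coding length, *Pfkp* held 23.4% in WT and 30.5% in *Smyd1-KO* hearts and *Pfkm* 10.2% and 6.13%, so *Pfkp* stood above *Pfkm* in WT as well. The mean share of *Pfkl* was then lower in *Smyd1-KO* hearts, at 63.7% against 66.4% in WT. *Pfkfb3* made up 63.6, 61.2 and 63.2% of PFKFB RNA in WT and 85.7, 83.8 and 82.8% in *Smyd1-KO* hearts. The shares of *Pfkfb1*, *Pfkfb2* and *Pfkfb4* were correspondingly lower in every *Smyd1-KO* heart, and *Pfkfb4* held 12.7±1.15% in WT and 3.84±0.23% in *Smyd1-KO* hearts.

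**Figure D3:**
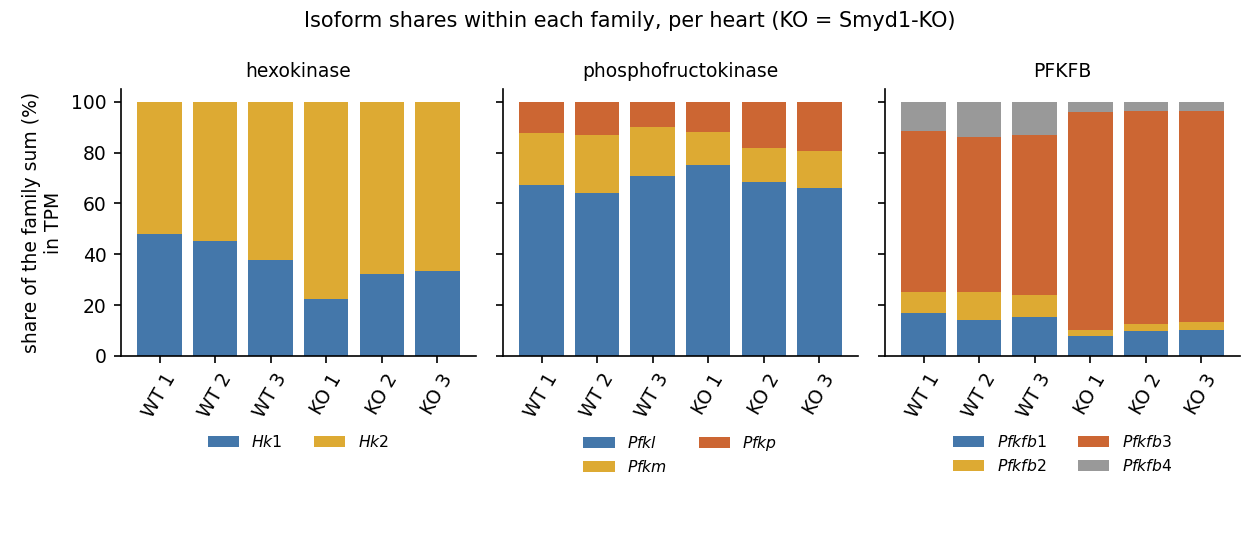
Share of each isoform in the summed TPM of its family, in percent, for each of the 3 WT and 3 *Smyd1-KO* hearts, with bars stacked to the family total. *Hk2* gains on *Hk1*, *Pfkm* narrows from a mean of 20.7 to 13.5%, and *Pfkfb3* widens from 62.7 to 84.1%.

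Ratios of counts within 1 heart do not depend on how libraries are scaled, so each pair of isoforms of a family was also compared as a log2 ratio. In 8 of the 10 pairs the genotypes did not overlap. For single genes in CPM, 31.3% of all tested genes did not overlap, and no such share was computed for ratios of other genes. The pairs reuse the same 9 genes, so they are not 10 separate results. For each of the 8 pairs the exact permutation test (two-sided, 3 hearts against 3) gave *P*=0.1, the smallest value it can give. After adjustment over the 10 pairs it was 0.125, so none could pass a threshold of 0.05. The *Hk1*/*Hk2* log2 ratio was 0.40, 0.23 and −0.21 in WT and −1.29, −0.56 and −0.48 in *Smyd1-KO* hearts, a mean difference of −0.92 against a pooled s.d. of 0.39. *Pfkm* lost ground to both other subunits. The *Pfkl*/*Pfkm* ratio went from a mean of 2.70 to 3.38 and the *Pfkm*/*Pfkp* ratio from −1.19 to −2.28, each without overlap. The *Pfkl*/*Pfkp* ratio was the first exception, at 1.45, 1.28 and 1.80 in WT and 1.63, 0.89 and 0.75 in *Smyd1-KO* hearts (exact permutation test, *P*=0.3), so the 2 subunits that rose were not told apart by this measure.

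The largest differences lay between *Pfkfb3* and its family. The *Pfkfb3*/*Pfkfb4* log2 ratio was 3.10, 2.79 and 2.91 in WT and 5.02, 5.16 and 5.08 in *Smyd1-KO* hearts, a difference of 2.15 with a pooled s.d. of 0.12. *Pfkfb2* and *Pfkfb1* also lost ground to *Pfkfb3*, with differences of −2.09 in the *Pfkfb2*/*Pfkfb3* ratio and −1.18 in the *Pfkfb1*/*Pfkfb3* ratio. *Pfkfb1* gained 0.91 on *Pfkfb2* and 0.97 on *Pfkfb4*. *Pfkfb2* and *Pfkfb4* kept a like ratio, with means of 0.09 and 0.15 and overlapping hearts (exact permutation test, *P*=0.8).

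**Figure D4:**
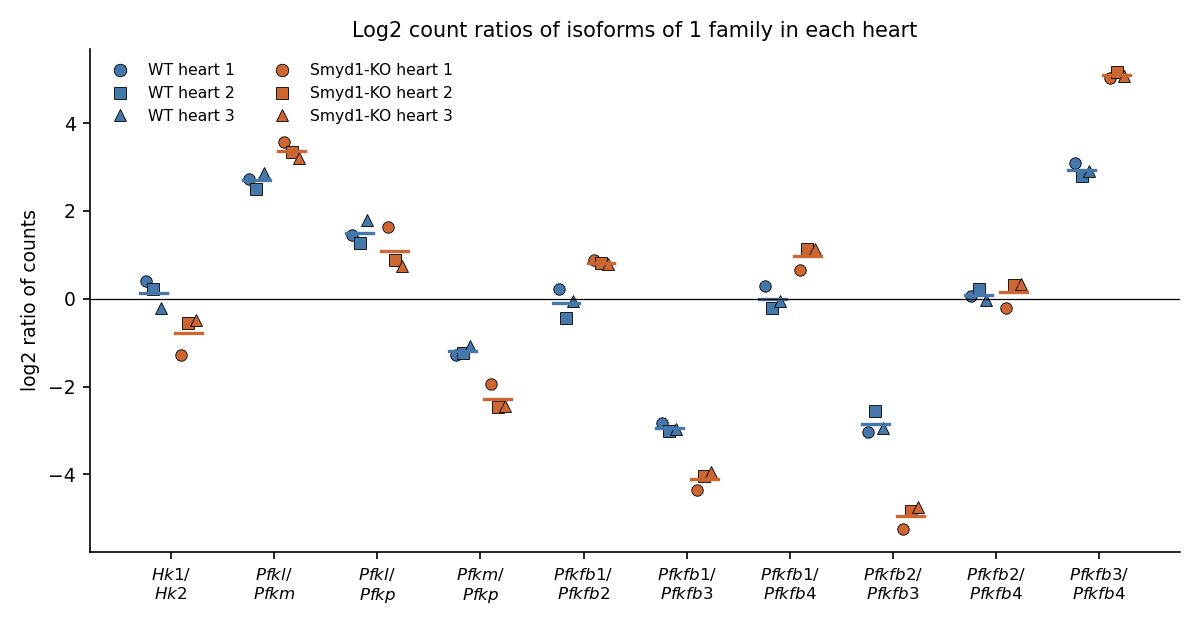
Log2 ratio of the counts of 2 isoforms of the same family in each heart, for 10 pairs. Points are single hearts (blue, WT; orange, *Smyd1-KO*), and bars are means of 3 hearts. The genotypes overlap only in *Pfkl*/*Pfkp* and *Pfkfb2*/*Pfkfb4*, and *Pfkfb3*/*Pfkfb4* differs most, by 2.15.

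The rest of the pathway, from glucose 6-phosphate to lactate, was described over a fixed list of 22 further genes, of which 21 were tested. Of these, 9 were called higher and 2 lower, against 2.86% and 1.42% of all tested genes. A positive log2 fold change was seen in 16 of 21, against 9641 of all 19372 tested genes. The median was 0.55, against −0.00 over all tested genes. By TPM, the most abundant isoform of each later step, except *Eno1* for enolase, was among the genes that rose. The 9 were *Gpi1* (glucose-6-phosphate isomerase, 0.70), *Aldoa* (aldolase A, 0.86), *Aldoc* (aldolase C, 2.06), *Tpi1* (triosephosphate isomerase, 0.79), *Gapdh* (0.62), *Pgk1* (phosphoglycerate kinase, 1.13), *Pgam1* (phosphoglycerate mutase, 0.55), *Pkm* (muscle-type pyruvate kinase, 0.63) and *Ldha* (lactate dehydrogenase A, 0.62), given as log2 fold changes with adjusted *P* from 0.00627 for *Aldoc* to 0.0471 for *Pgam1*. *Pgk1* was measured at 1478, 1085 and 1117 CPM in WT and 2623, 2888 and 2559 CPM in *Smyd1-KO* hearts. *Aldoc* was measured at 9.48, 9.37 and 6.53 CPM in WT and 26.9, 35.2 and 43.7 CPM in *Smyd1-KO* hearts. In both genes the genotypes lay far apart. *Hk2*, *Pfkp* and *Pfkfb3* had larger estimates than all 9 but *Aldoc*. That order was not tested. *Eno1* was measured at 0.68±0.17 (adjusted *P*=0.0613), and its reads may be split with the near-identical copy *Eno1b*, which was at 0.21. Highly abundant genes such as *Gapdh*, *Pgk1* and *Ldha* have many processed pseudogenes, to which some of their reads may have been assigned.

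The calls of this list depended on single hearts, falling from 11 to 2 without WT heart 2 or WT heart 3, to 3 without *Smyd1-KO* heart 2 and to 6 without *Smyd1-KO* heart 3. The 2 genes called lower were *Pklr*, the liver and red cell pyruvate kinase, at −2.93 (adjusted *P*=0.00397), and *Bpgm*, the red cell enzyme that makes 2,3-bisphosphoglycerate, at −0.72 (adjusted *P*=0.0136). *Pklr* was measured at 3.74, 4.43 and 4.88 CPM in WT and 0.72, 0.61 and 0.39 CPM in *Smyd1-KO* hearts. The erythroid marker sum was lower in the same hearts, and its part in these differences was not tested. *Pgam2* and *Eno3*, forms of phosphoglycerate mutase and enolase known from muscle, were not called, at 0.10 and 0.03.

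**Figure D5:**
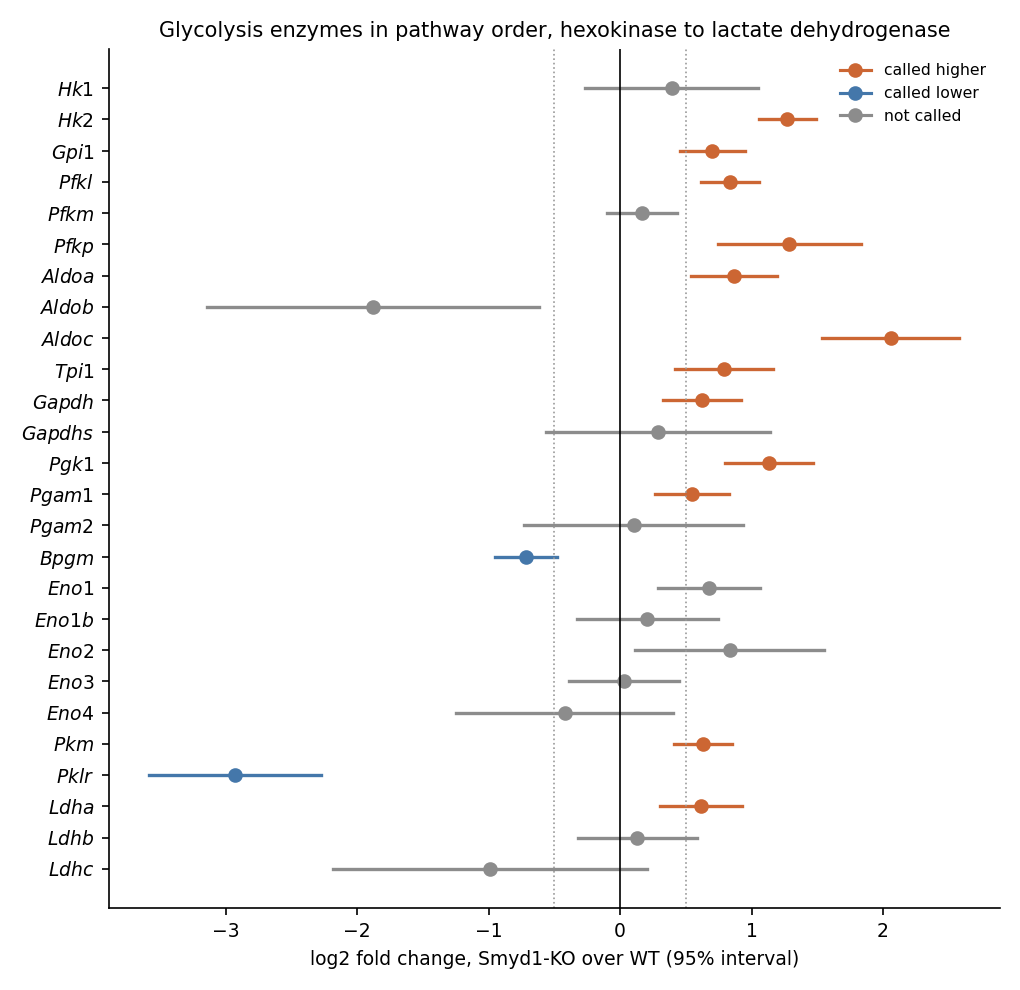
Log2 fold change, *Smyd1-KO* over WT, with 95% intervals, for the glycolysis enzymes in pathway order from hexokinase to lactate dehydrogenase. Orange marks genes called higher, blue genes called lower and grey genes not called, and dotted lines stand at ±0.5. Called rises are found from *Hk2* at the top, 1.27, to *Ldha* near the bottom, 0.62, and the falls are *Bpgm* and *Pklr*.

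A second list of 14 genes held the other glucose kinases, the phosphatases that oppose hexokinase and phosphofructokinase, and proteins that hexokinase binds at mitochondria. Of its 11 tested genes, 0 were called higher and 1 lower by edgeR, against 2.86% and 1.42% of all tested genes. DESeq2 called 1 higher, *Hkdc1*. The gene called lower was *Tigar*, a phosphatase that removes fructose 2,6-bisphosphate, at 38.2, 32.3 and 30.5 CPM in WT and 18.2, 20.9 and 19.9 CPM in *Smyd1-KO* hearts. The genotypes did not overlap, and the log2 fold change of *Tigar* was −0.77±0.12 (edgeR, adjusted *P*=0.0169), though it was called in 2 of the 6 fits without 1 heart. The glucose kinase gene *Hkdc1* was measured at 1.85 to 3.29 CPM in WT hearts, far below *Hk1* and *Hk2*, and its log2 fold change was 0.82±0.31 (adjusted *P*=0.153). *Hk3*, *Fbp1* and *G6pc* were below the filter. The channel genes *Vdac1*, *Vdac2* and *Vdac3*, whose proteins dock hexokinase at the outer mitochondrial membrane, were at 0.29, 0.02 and −0.04 and were not called.

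Finally, 13041 tested genes (those averaging 1 or more in log2 CPM) were ranked by how closely they followed each member over the 6 hearts, as the root mean square difference of centred log2 CPM. The nearest genes to *Pfkfb3* were *Upp1* (0.08; log2 fold change 1.77) and *Slc2a3*, which encodes the glucose transporter GLUT3 (0.10; 1.77). The nearest to *Hk2* were *Tbl2* (0.08) and *Khnyn* (0.09), and the nearest to *Pfkl* were *Wdr34* (0.05) and *Syce2* (0.07). *Pfkp* lay nearest to the immediate early gene *Egr1* (0.03) and to *Aplp1* (0.05), and *Hk1* to *Tmem179* (0.05) and *Ddr1* (0.06). *Pfkm* was nearest to *Aig1*, *Pfkfb1* to *Glb1* and *Jmjd6*, *Pfkfb2* to *Nup210l* and *Leng8*, and *Pfkfb4* to *Dgkq* and *Ly75*. With 6 hearts in 2 groups, a small difference mainly says that a gene had a like genotype difference.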

How the data were processed

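RNA was measured in 3 WT and 3 *Smyd1-KO* E9.5 hearts. Per the paper's methods, the authors selected poly A RNA, sequenced it paired-end and aligned it to mm10 with STAR. The counting tool, annotation and strand setting are not given in the sources used here. The raw counts per gene that the authors deposited were the basis of all results. The second deposited table holds a signal, the counts divided by 1 size factor per heart, and was used only to check this (100% of values within 0.1%).

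Counts were tested in R 4.3.3 with edgeR 4.0.16 (filterByExpr, TMM, quasi-likelihood test, Benjamini-Hochberg adjustment over 19372 genes). CPM carry TMM factors, with a prior count of 2 on the log2 scale. The s.d. values in CPM and beside the cardiomyocyte marker sum instead used the log2 of CPM plus a smaller constant. Ratios used a pseudocount of 0.5. Lengths and positions came from GENCODE M21 (GRCm38). *Aldoa* is listed under 2 identifiers, and ENSMUSG00000030695, which holds nearly all its counts, was used. DESeq2 1.42.0 and other settings were alternatives. The test was tried on simulated data. Promoters came from the RefSeq table for GRCm38.p6, in which all 9 members matched. No protein table was used here. Python 3.11.15, pandas 2.3.3, scipy 1.17.1 and matplotlib 3.10.9 made the tables and plots.

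The members and the lists were chosen with earlier results of these data known. Named genes are the members, both lists, *Smyd1* and the 2 genes nearest each member in pattern. *Apex2*, *Pitrm1*, *Gm29427* and *Yod1* were named for their overlap. Of the genes under this rule, 2 are not reported here. The counting error given for the smallest count covers counting only, and the intervals of fold changes include the spread between hearts.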

Additional observations from a re-analysis of the deposited data

How the results depend on the processing

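With 3 hearts per genotype, the counts of calls moved with single hearts and with the model, while the direction of every called member held under every alternative run. Of the 9 members, 4 were called, and 2 (*Hk2* and *Pfkfb3*) with glmTreat against a log2 fold change of 0.5, 2 with the replicate block, and 2 to 4 in the fits without 1 heart. DESeq2 called 5, adding *Pfkfb4* as lower. Over all genes, 830 were called, against 1747 with DESeq2, 154 with glmTreat, 59 with the replicate block, 97 to 1256 without 1 heart (97 without WT heart 2 and 1256 without *Smyd1-KO* heart 1), and 1630 with the cardiomyocyte marker sum as a covariate, an alternative chosen after seeing the data. Of the other glycolysis enzymes, 11 were called, against 2 with glmTreat, 0 with the replicate block and 2 to 12 without 1 heart. For the relatives the count of 1 became 2 with DESeq2, 0 with glmTreat and with the block, and 0 to 1 without 1 heart. Deviations from the genotype mean had correlations of −0.22, −0.05 and −0.18 between hearts with the same number. With 3 hearts per genotype the deviations are tied to each other, so these values cannot show whether the numbers pair hearts. The labels do not say. With the block *Hk2* (adjusted *P*=0.0361) and *Pfkfb3* (0.0252) were still called and *Pfkl* (0.0756) and *Pfkp* (0.135) were not.

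The share of *Hk2* was 41.4% in WT and 56.9% in *Smyd1-KO* hearts with the longest transcript as length, and 48.3% and 63.6% with the coding length. That of *Pfkl* was 74.0% and 75.1% with the longest transcript and 66.4% and 63.7% with the coding length, the opposite order of the genotypes. That of *Pfkfb3* was 69.0% and 88.0% with the coding length. Leaving out 1 heart, these shares ran from 53.4 to 58.6% and 67.2 to 72.8% for *Hk2*, and from 62.2 to 63.4% and 83.3 to 84.7% for *Pfkfb3*. The *Pfkfb2*/*Pfkfb4* ratio difference of 0.06 changed sign in 2 of its alternatives (−0.02 and −0.04). The exact test of 3 hearts against 3 cannot pass 0.05 and says nothing about the stability of the ratios.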

Other observations

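*Hk1* and *Pfkp* moved from heart to heart with the cardiomyocyte marker sum. *Hk1*, *Hk2*, *Pfkm* and *Pfkp* were lowest in the same WT and *Smyd1-KO* hearts as that sum, as were 21.4% of all tested genes. Per 1000 CPM of cardiomyocyte markers, *Hk1* was measured at 14.6, 14.7 and 15.8 CPM in WT and at 22.2, 20.6 and 21.2 CPM in *Smyd1-KO* hearts. For *Hk1* the genotypes overlapped in CPM and not on this measure. For *Pfkfb1* and *Pfkfb4* it was the reverse, with overlap on this measure and not in CPM. *Pfkm* and *Pfkfb2* overlapped on both. The share of all tested genes without overlap on this measure was not computed. The pooled s.d. of *Hk1* on the log2 scale went from 0.47 in CPM to 0.06 beside the marker sum, which ranked 25 of 19372 tested genes by the ratio of the 2. *Pfkp* was at 11.8, 12.4 and 14.5 CPM per 1000 in WT and at 38.8, 31.4 and 32.7 in *Smyd1-KO* hearts, with its s.d. going from 0.37 to 0.16. Beside the sum 10.5% of all tested genes had a smaller s.d., and 2 of the 9 members, these 2, were among them. For *Hk2*, *Pfkl* and *Pfkfb3* the s.d. was larger beside the sum, as for *Pfkfb3*, which went from 0.08 to 0.59.

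With the log2 marker sum as a covariate in the edgeR model, the log2 fold change was 0.49±0.07 for *Hk1* (adjusted *P*=0.00691, below the size needed for a call), 1.36±0.07 for *Pfkp* (0.000361), 1.29±0.07 for *Hk2* (0.000457), 0.84±0.09 for *Pfkl* (0.00328) and 1.63±0.06 for *Pfkfb3* (0.000126). The 4 members called without the covariate were called again. *Smyd1* itself stood at −0.92±0.08 (adjusted *P*=0.00146) with the covariate. The covariate was chosen after seeing the data and leaves fewer degrees of freedom among 6 hearts.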
